A study of Rattus norvegicus with 4 samples.

Results

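Oxidative phosphorylation genes were read in the livers of 4 untreated male Sprague-Dawley rats, 10 to 12 weeks old. Probe sets were taken whose single annotated symbol names a subunit or close relative of respiratory complexes I to IV or ATP synthase (complex V), or the subunit cytochrome c1. The rule gave 90 probe sets for 85 genes, out of 12789 probe sets with 1 symbol and 10412 named genes on the array. A gene with more than 1 probe set was represented by the one with the highest mean, and 81 of the 85 genes had only 1. Each rat had its own Affymetrix array, so rat and array cannot be told apart. All 4 rats form 1 group that received no treatment, and no genotype or allele other than the strain is given, so there is no contrast between conditions and no test is given. Values are log2 signals, on which a difference of 1 is a doubling, and each gene is given as mean ± SD over n = 4 rats. In whole liver, fewer cells of a type and less RNA per cell cannot be told apart.

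Oxidative phosphorylation takes place in the inner mitochondrial membrane. Complex I accepts electrons from NADH and complex II from succinate. Both pass them through ubiquinone to complex III, which hands them to cytochrome c, and complex IV delivers them to oxygen. Complexes I, III and IV pump protons, and complex V uses the returning protons to make ATP. Most subunits are encoded in the nucleus and a few in mitochondrial DNA, and several complex IV subunits exist as isoforms that differ between tissues. Hepatocytes are rich in mitochondria, which also carry out fatty acid oxidation and parts of the urea cycle.

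The 4 arrays shared a median log2 signal of 8.11, 1 lot and 1 scan day. Of the hepatocyte markers with a probe set, 7 of 7 lay above the background level, and albumin (Alb) stood at 15.06 ± 0.017. None of the 11 muscle and heart markers with a probe set and none of the 4 bile duct markers lay above it, though 10 of those 11 also belong to the list that set the level. A gene was counted as above background where its mean exceeded 8.31. That is the 95th percentile over 60 measured genes typical of other organs (brain, muscle, testis, eye), each taken at its brightest probe set. Of these 60 genes 3 lay above the level. They were the muscle myosin Myh1 at 11.49 ± 0.19, which is not among the 11 muscle and heart markers, Syp at 9.06 and Pde6g at 9.04. A gene below the level may still be transcribed. Of all probe sets, 43.5% held values equal to within 0.001 on the 4 arrays. These are called flat, and their SD does not measure the animals.

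Of the 85 genes, 73 lay above background, where 46.8% of all named genes did. The median signal of the 85 genes was 10.32, against 8.26 over all named genes, and the median gene stood at the 93.8th percentile of signal. At this level the split followed the role of the gene, and at some other levels, given below, it was less complete. All 72 structural subunits, with Cox7a2l counted among them, were above background, with mean signals from 8.51 to 12.78. The 12 genes below it were 4 of 5 complex I assembly factors, all 6 tissue isoforms of complex IV, the pseudogene Cox6c-ps1 and the ATP synthase inhibitor Atp5if1. At the level itself, Ndufs4 at 8.51 was the lowest gene above and Atp5if1 at 8.29 the highest gene below. The hybridisation of a probe set also sets its signal, so signals of different genes are described here and not read as amounts of transcript.

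**Figure D1:**
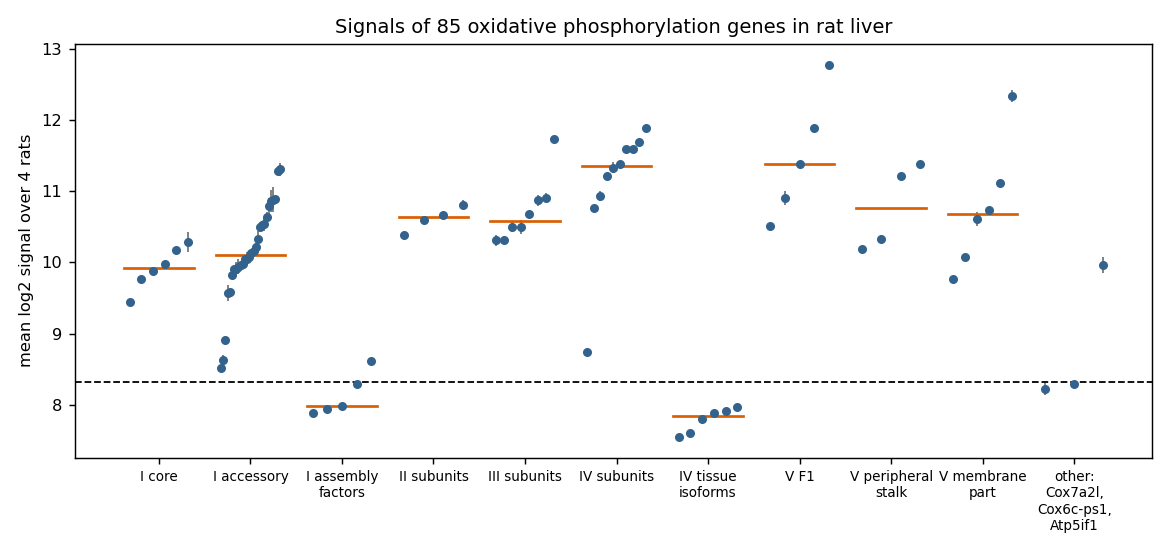
Mean log2 signal of each of the 85 genes over the 4 rats (vertical axis), grouped by complex and role; points are genes, error bars the SD over rats, orange lines the group medians and the dashed line the background level of 8.31. The 72 structural subunits lie above the line, and the 6 tissue isoforms of complex IV lie below it.

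Complex I, NADH dehydrogenase, had 39 genes, of which 35 were above background. The nuclear genome encodes 7 core subunits that carry the flavin and iron-sulfur clusters, and 6 of them had a probe set of their own. These 6 had signals between 9.44 (Ndufs1) and 10.28 (Ndufv2). Ndufv2, an iron-sulfur subunit of the NADH-binding module, read 10.33, 10.17, 10.47 and 10.17 in rats 1 to 4. It was high in rats 1 and 3 and low in rats 2 and 4.

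The 28 accessory subunits of complex I, which surround the core, were all above background and had a median of 10.10. The highest signals were those of Ndufa1, Ndufb9 and Ndufb11. Ndufa1, an X-linked membrane-arm subunit, read 11.18, 11.30, 11.35 and 11.40 in rats 1 to 4, so that rat 1 lay below the other rats. Ndufb9 at 11.29 and Ndufb11 at 10.89 were flat. The accessory subunits with the largest SD were Ndufc1 and Ndufb3, both of the membrane arm. Ndufc1 read 10.95, 10.70, 11.09 and 10.78, and Ndufb3 read 10.81, 10.69, 11.04 and 10.91. In both, rat 3 was highest and rat 2 lowest, and the range of Ndufc1, 0.40, was the largest of the 73 genes above background. It corresponds to a ratio of 1.32.

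The 5 assembly factors of complex I, which help to build the complex without staying in it, had low signals with a median of 7.98. Ndufaf7, a methyltransferase that modifies a core subunit, had the lowest at 7.89 ± 0.026. It read between 7.86 and 7.92 in the 4 rats. Ndufaf3 was the member of this group above background, at a flat 8.61.

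Complex II, succinate dehydrogenase, belongs to the respiratory chain and to the tricarboxylic acid cycle, and all 4 of its subunits were above background. The flavoprotein Sdha was flat at 10.60 and the membrane anchor Sdhc flat at 10.38. The iron-sulfur subunit Sdhb read 10.77, 10.75, 10.90 and 10.83 in rats 1 to 4, highest in rat 3. The other anchor, Sdhd, was flat at 10.67 in its brighter probe set, while its second probe set read 10.33, 10.31, 10.50 and 10.35. A flat value in 1 probe set thus stood beside a highest value in rat 3 in another probe set of the same gene.

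All 8 genes of complex III, the cytochrome bc1 complex, were above background and none was flat. Uqcrq, a small subunit next to cytochrome b, had the highest signal at 11.74 ± 0.027, and Uqcr11 the lowest at 10.31 ± 0.077. The Rieske iron-sulfur protein Uqcrfs1, which passes electrons on to cytochrome c1, read 10.84, 10.79, 10.96 and 10.92 in rats 1 to 4. The hinge protein Uqcrh read 10.40, 10.45, 10.62 and 10.53, and Uqcr10 read 10.85, 10.85, 10.96 and 10.96. In all 3 genes both values of rats 3 and 4 lay above both values of rats 1 and 2. Cytochrome c1 itself, Cyc1, read 10.55, 10.42, 10.58 and 10.45 and did not show that split.

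Complex IV, cytochrome c oxidase, had 18 genes. Here Ndufa4, once assigned to complex I, is placed with complex IV, of which it is now regarded as a subunit, together with its relative Ndufa4l2. The 10 subunits of the widely expressed kind had a median signal of 11.36. Cox8a read 11.86, 11.88, 11.89 and 11.90 in rats 1 to 4, Cox4i1 was flat at 11.69, and Cox6c read 11.59, 11.53, 11.62 and 11.64. Ndufa4 read 11.27, 11.27, 11.42 and 11.37, so that rats 3 and 4 lay above rats 1 and 2. Cox7a2l, a factor that links complexes III and IV into supercomplexes, behaved otherwise, with 10.12, 9.86, 9.90 and 9.96 and its highest value in rat 1. Cox5a, which carries 1 symbol in a probe set at 8.74 ± 0.053, read 11.35 ± 0.099 in another that carries a second symbol too. The 1-symbol probe set was highest in rat 3. The brighter one was highest in rat 1 and lowest in rat 4, with 11.49, 11.32, 11.35 and 11.25 in rats 1 to 4. Which of the genes behind those symbols gave the higher signal was not tested.

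The isoforms of complex IV known from other tissues had signals within the background. Cox6a2, Cox7a1 and Cox8b are the isoforms of heart and skeletal muscle, Cox4i2 is best known from lung, and Cox6b2 from testis. Cox6a2 read 7.92, 7.84, 7.96 and 7.91 in rats 1 to 4, while its widely expressed partner Cox6a1 read 10.82, 10.98, 10.97 and 10.95. Cox4i2 was flat at 7.97, Cox7a1 at 7.80 and Cox8b at 7.60, and Cox6b2 had the lowest signal of all 85 genes, 7.55 ± 0.025. Ndufa4l2, a relative of Ndufa4 that responds to low oxygen and is only counted here with the tissue isoforms, read 7.89 ± 0.033. In each of the 5 pairs with a probe set for both partners, the widely expressed partner lay above the background level in all 4 rats and the tissue isoform below it. The partner of Cox7a1 is Cox7a2, whose probe set carries 2 symbols and read 11.30 ± 0.078. Among muscle markers, creatine kinase (Ckm) stood at 7.86 ± 0.066 and myoglobin (Mb) at 7.74 ± 0.036.

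**Figure D2:**
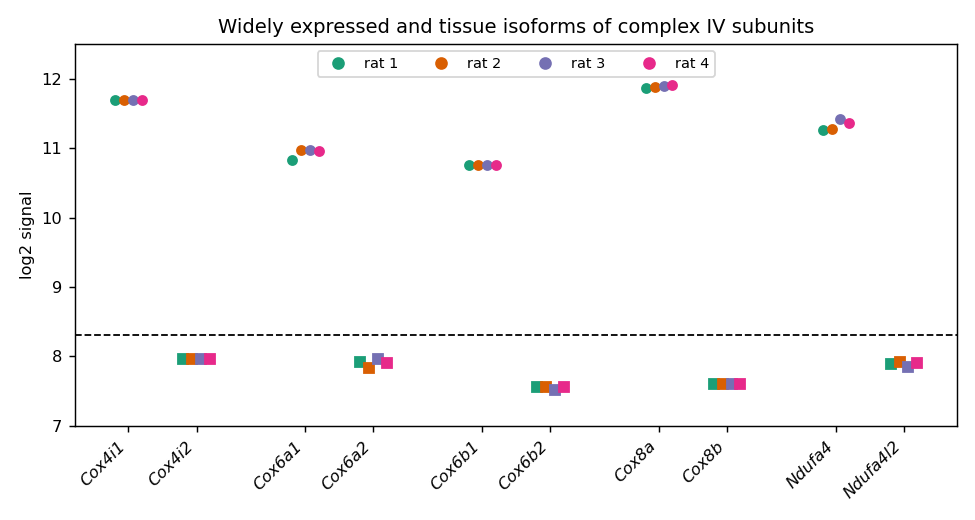
Log2 signal in each of the 4 rats (colours) for 5 pairs of complex IV genes; circles are the widely expressed member of a pair, squares the tissue isoform, and the dashed line is the background level of 8.31. Each tissue isoform lies below the line in all 4 rats and its partner above it.

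Complex V, ATP synthase, had 16 genes and 15 above background. The 5 genes of the F1 part, which holds the catalytic sites and the central stalk, had a median of 11.38. The catalytic beta subunit Atp5f1b had the highest signal of all 85 genes and read 12.77, 12.75, 12.82 and 12.78 in rats 1 to 4. The alpha subunit Atp5f1a read 11.87, 11.88, 11.93 and 11.89. The epsilon subunit Atp5f1e of the central stalk read 10.81, 10.85, 11.0004 and 10.97, and the membrane subunit Atp5mg 10.54, 10.53, 10.73 and 10.64. In both of these, rats 3 and 4 lay above rats 1 and 2. All 5 genes of the F1 part were highest in rat 3, as were 33.6% of all varying named genes above background.

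The c subunit, whose ring turns as protons pass, is made from several genes. Atp5mc3, the one with a probe set of its own, read 12.46, 12.30, 12.33 and 12.26 in rats 1 to 4, highest in rat 1 and lowest in rat 4. The probe set of Atp5mc2 carries 2 symbols and showed the opposite order of these rats, with 10.36, 10.55, 10.65 and 10.72. That of Atp5mc1, which also carries 2 symbols, was flat at 11.38. The 4 genes of the peripheral stalk, which holds the F1 part still, had a median of 10.77. The inhibitor Atp5if1, which blocks ATP hydrolysis by the enzyme, was below background at 8.29, and its other probe sets read 7.40 and 7.44.

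Cytochrome c (Cycs) had only probe sets that carry 3 symbols, so it was not a member. They read 11.40, 11.05, 11.24 and 11.16, and 10.57, 10.30, 10.47 and 10.30, in rats 1 to 4. Both were highest in rat 1 and lowest in rat 2. In all, 9 probe sets carried a symbol of the rule beside others, and all 9 lay above background, between 9.48 and 11.42. Of the 8 that varied, 2 were highest in rat 3 and 3 in rat 1. Over all varying named genes above background these shares were 33.6% and 23.9%.

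The 73 genes above background differed little between rats. The median SD was 0.040 log2 units, against 0.033 over all named genes above background. Of the 73 genes 21 were flat, a share of 28.8% against 34.6% of all named genes above background. The 52 that varied had a median SD of 0.063, against 0.058 over all varying named genes above background and 0.061 over the 2622 within the signal range of the subunits. Between 10.03 and 10.91, the middle range of the subunits, it was 0.077 for 26 subunits and 0.088 for 374 named genes, these subunits included. So the subunits' median SD lay slightly above that of all named genes over their full range and below it in the middle range. A range over 0.25 was found in 5 of the 73, against 13.8% of all named genes above background.

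The small differences had a shared order. Of the 52 genes 33 were highest in rat 3, a share of 63.5% against 33.6% of all varying named genes above background. In rat 2, 29 of the 52 were lowest (55.8%, against 29.2%), and in rat 1 a further 20 (38.5%, against 30%). Rat 4 was highest for 11 genes, a share of 21.2% against 20.8%. The numbers highest in rats 1 and 2 were 4 each (7.69%, against 23.9% and 21.6%). The numbers lowest in rats 3 and 4 were 2 (against 18%) and 1 (against 22.8%). Taken pair by pair, rat 3 exceeded rat 1 in 46 of 52 genes (against 58.2% of all varying named genes above background), rat 2 in 45 (59%) and rat 4 in 37 (57.9%). Rat 4 exceeded rat 2 in 45 (52.7%) and rat 1 in 37 (51.8%), and rat 1 exceeded rat 2 in 31 (50.7%). Both of rats 3 and 4 exceeded both of rats 1 and 2 in 28 genes, where 20.5% of all did. Over the 52 genes the median deviations from the gene mean were -0.022, -0.050, 0.046 and 0.014 in rats 1 to 4. With the flat genes included they were -0.0020, -0.014, 0.016 and 9.9e-08.

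**Figure D3:**
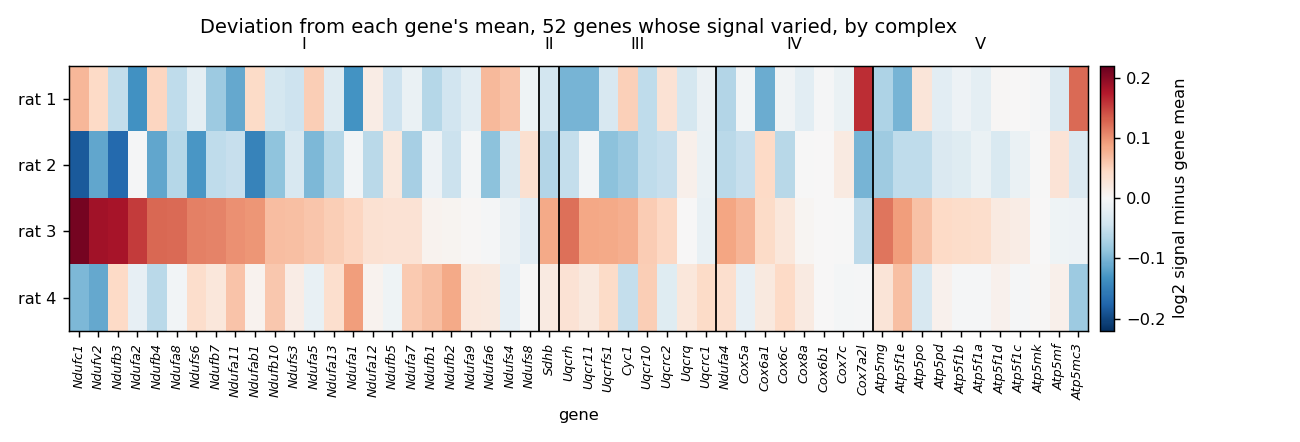
Deviation of the log2 signal in each rat (rows) from the mean of that gene over 4 rats, for the 52 genes above background whose signal varied (columns), ordered by complex and then by the deviation in rat 3; red is higher and blue lower. The row of rat 3 is mostly red, with a median of 0.046, and the row of rat 2 mostly blue, with a median of -0.050.

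A part of this order was shared by named genes of like signal. The arrays differed slightly in width, with an SD over all probe sets of 1.03 in rat 3, 1.01 in rat 2 and 1.02 in both others. Among the 374 varying named genes with signals between 10.03 and 10.91, 40.9% were highest in rat 3 and 39.3% lowest in rat 2. The 26 varying subunits in that range are included in the 374, and 20 and 19 of them were. When each array was centred on the named genes above background, a shift of at most 0.012 log2 units, 25 of 52 genes (48.1%) were highest in rat 3, against 26.1% of all varying named genes above background. Rat 1 was then highest for 11 instead of 4 (21.2%, against 32.1%), and rat 2 lowest for 32 (61.5%, against 29.6%). The median deviation over the 52 genes was then -0.010, -0.052, 0.034 and 0.016 in rats 1 to 4. With the flat genes included, which this centring shifts too, it was 0.0099, -0.016, 0.0037 and 0.0018, so that rat 1 lay above rat 3. With a smooth trend of the deviation on signal removed from each array, a choice made after seeing the data, 23 of 52 genes (44.2%) were highest in rat 3, against 25.5% of all varying named genes above background. With the trend removed, 19 of 52 were lowest in rat 2 (36.5%, against 25.6%) and as many in rat 1 (against 27.1%), so rat 2 was no longer the rat most often lowest. Rat 1 was then highest for 10 (19.2%, against 26.6%). Rat 3 was thus most often the highest rat on each scale, with a count that depended on the scaling, and no test over rats is possible with 1 array each.

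**Figure D4:**
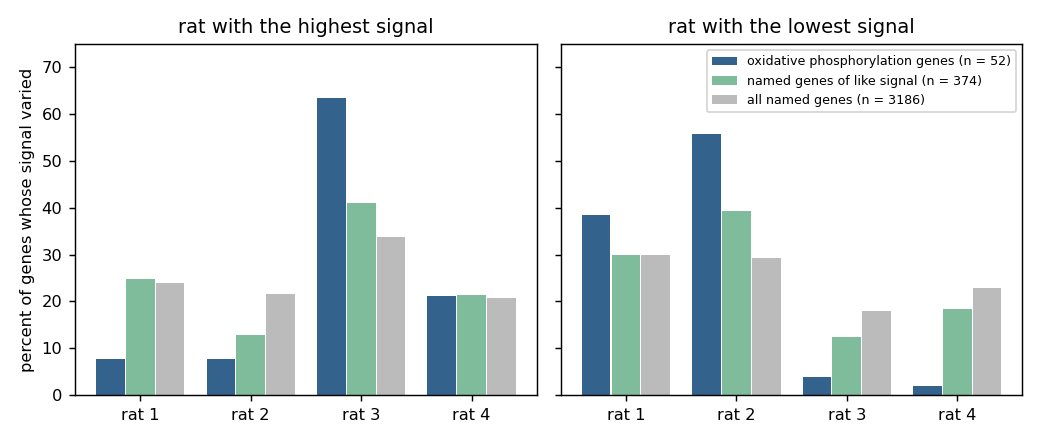
Percent of genes with their highest (left) or lowest (right) log2 signal in each rat, among genes whose signal varied; blue bars are the 52 oxidative phosphorylation genes, green bars the 374 named genes with signals between 10.03 and 10.91, and grey bars the 3186 varying named genes above background. Green and grey include oxidative phosphorylation genes. Blue exceeds green and grey for rat 3 as the highest rat (63.5%) and for rat 2 as the lowest (55.8%).

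The complexes did not all share the order to the same extent, though their differences were not tested. Rat 3 was highest for 16 of 24 varying genes of complex I, 6 of 8 of complex III and 8 of 11 of complex V. The single varying gene of complex II was also highest in rat 3. In complex IV rat 3 was highest for 2 of 8 (25%), Ndufa4 and Cox5a, and rat 1 was lowest for 5 of 8 (62.5%). Over all varying named genes above background, 33.6% were highest in rat 3 and 30% lowest in rat 1. These counts by complex are on the deposited scale only. The largest deviations in rat 3 were those of Ndufc1 (0.21), Ndufv2 (0.19) and Ndufb3 (0.18), all of complex I. The 4 genes highest in rat 1 were Ndufa6, Ndufs4, Cox7a2l and Atp5mc3.

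Other measures of the samples moved between rats as follows, and their part in the order was not tested. The 3' minus 5' signal of beta-actin, a guide to RNA integrity, was 0.85, 0.63, 0.54 and 0.66 in rats 1 to 4, smallest in rat 3. The same difference for Gapdh was 0.48, 0.52, 0.54 and 0.54, and for hexokinase 0.032, 0.17, 0.013 and 0.042. Of 8 stellate cell and fibroblast markers, 4 were above background, with median deviations of -0.073, 0.27, -0.45 and 0.24, and the summed linear signal of the 8 was lowest in rat 3, at 2986 against 3828 to 4675. All 5 Kupffer cell and macrophage markers were above background, with a summed signal from 4346 in rat 1 to 5388 in rat 2. Of 5 blood and lymphoid markers 2 were above background, and the summed signal of the 5 was 4870, 3442, 4195 and 3026. Haemoglobin beta (Hbb) read 11.91, 11.27, 11.64 and 11.0039 in rats 1 to 4, high in rats 1 and 3. The 7 hepatocyte markers had median deviations of -0.015, -0.0030, 0.0040 and 0.0054.

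The 2 mitochondrially encoded subunits with a probe set went the other way. COX1, which holds the site of oxygen reduction in complex IV, read 12.85, 12.78, 12.63 and 12.65 in rats 1 to 4. COX2, which accepts electrons from cytochrome c, read 13.53, 13.46, 13.43 and 13.44. Both were highest in rat 1 and lowest in rat 3. Of all varying named genes above background, 23.9% were highest in rat 1 and 18% lowest in rat 3. Of the 52 nuclear genes 33 were highest in rat 3 and 4 in rat 1. Among the nuclear genes of complex IV, 2 of 8 were highest in rat 3. The difference between the genomes was not tested.

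Other mitochondrial genes were taken from lists by function. All 14 measured enzymes of the pyruvate dehydrogenase and tricarboxylic acid cycle list were above background, with malate dehydrogenase (Mdh2) at 10.76 ± 0.069, and 2 of the 8 that varied were highest in rat 3. Of 9 genes listed as feeding electrons into the chain by other routes, 7 were above background. Among them the electron transfer flavoprotein subunit Etfb, which serves fatty acid oxidation, read 11.22, 11.06, 11.37 and 11.24 in rats 1 to 4. In this list 6 of 7 were lowest in rat 2 and 4 of 7 highest in rat 3. Both counts include Cyb5r3, a reductase of cytochrome b5 rather than of the chain.

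Of 15 carriers and membrane proteins, a list that includes Atp5if1, 13 were above background. The ADP/ATP carrier Slc25a5, which exports the ATP made by complex V, stood at 12.09 ± 0.063, and the phosphate carrier Slc25a3 at 11.28 ± 0.088. Of the 10 that varied, 1 was highest in rat 3 and 6 in rat 1. Of 27 assembly factors outside the rule, 17 were above background, with a median of 8.52 over the 27, and all 8 that varied were highest in rat 3. Of 71 mitochondrial ribosomal proteins, 61 were above background, with a median of 8.92, and 23 of the 41 that varied were highest in rat 3. Of 20 genes of protein import and membrane dynamics, 17 were above background, and 7 of 14 were highest in rat 3. So the share highest in rat 3 lay above 33.6% for electron entry genes, assembly factors, ribosomal proteins and import genes, and below it for cycle enzymes and carriers.

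Of 8 genes that regulate or carry out mitochondrial gene expression, 5 were above background, all 5 varied and 3 of them were highest in rat 3. The highest signals were those of the mitochondrial DNA polymerase subunit Polg at 9.76 ± 0.015, the mitochondrial RNA polymerase Polrmt at 8.80 ± 0.012 and the polymerase subunit Polg2 at 8.74 ± 0.25. Ppargc1a, a coactivator of mitochondrial biogenesis, was flat at 7.03, below background. The nuclear receptor Esrra read 8.69, 8.57, 8.65 and 8.56, and the mitochondrial DNA-binding protein Tfam 8.46, 8.45, 8.53 and 8.40, so both lay just above the level. Nrf1 and Gabpa were not analysed here. Gabpb1, the partner of Gabpa, stood at 8.15 ± 0.039, below background.

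Promoters of the genes were read for short motifs of factors known to act on nuclear genes of the respiratory chain. RefSeq promoters on GRCr8, from 250 bases before to 50 after the gene start, were at hand for 76 of the 85 genes. They are shown because the subunits and the tissue isoforms split by signal. In the stretches below, written 5' to 3' from 100 bases before to 20 after the start, capitals mark matches. Sdha (chr1:30764453-30764572, plus strand) holds the NRF-1 core 3 times, the most of any member. Uqcrc1 (chr8:118468123-118468242, plus strand) holds it once, with a YY1 match across the start. Cox8a (chr1:213833604-213833723, minus strand) holds the ETS core 2 times. Its muscle isoform Cox8b (chr1:205408254-205408373, minus strand) holds none of the 3 in this stretch. Other pairs did not all differ like this, as given below.
Sdha: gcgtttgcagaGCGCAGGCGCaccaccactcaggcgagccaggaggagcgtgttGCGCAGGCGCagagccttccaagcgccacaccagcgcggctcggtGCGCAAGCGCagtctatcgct
Uqcrc1: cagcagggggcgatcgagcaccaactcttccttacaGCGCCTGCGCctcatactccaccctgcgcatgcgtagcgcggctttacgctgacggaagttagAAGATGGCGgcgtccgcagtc
Cox8a: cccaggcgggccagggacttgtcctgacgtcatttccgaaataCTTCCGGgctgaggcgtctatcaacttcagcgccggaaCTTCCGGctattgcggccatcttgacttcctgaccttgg
Cox8b: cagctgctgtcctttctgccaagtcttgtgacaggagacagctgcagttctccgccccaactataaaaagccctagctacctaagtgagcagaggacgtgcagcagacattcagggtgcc

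Matches were counted on both strands, and overlaps between motifs were not removed. The NRF-1 core, GCGCA and GCGC with any 1 base between them, was present in 15 of 76 promoters (19.7%), against 11.3% of 4110 array genes above background and 4.25% of all 33469 promoters of the table. The ETS core CCGGAAG, bound by GABP, was present in 21 (27.6%, against 19.0% and 8.75%). The YY1 core AAGATGGCG was present in 11 (14.5%, against 4.38% and 1.73%), and 9 of its 11 matches began after the gene start. At least 1 of these 3 motifs was found in 40 of 76 promoters, or 52.6%, against 30.02% of array genes above background and 13.4% of all promoters. None of the 5 tissue isoforms with a promoter held any of them. Of the widely expressed complex IV subunits with a promoter, Cox4i1, Cox5b and Cox8a held the ETS core. Cox5a, Cox6b1, Cox7b, Cox7c and Ndufa4 held none of the 3 motifs. The pairs of Cox6b1 with Cox6b2 and of Ndufa4 with Ndufa4l2 thus did not differ in them. Among the other members below background, Ndufaf4 and Ndufaf5 held the NRF-1 core and Ndufaf8 the ETS and YY1 cores, so the motifs did not follow the split by signal throughout. The Sp1 core GGGCGG was present in 32 (42.1%), below the 64.5% of array genes above background and above the 33.1% of all promoters. The ERR site TCAAGGTCA was present in 2 (2.63%, against 0.170% and 0.433%). A match describes letters in the sequence and does not show binding, and these shares were not tested.

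**Figure D5:**
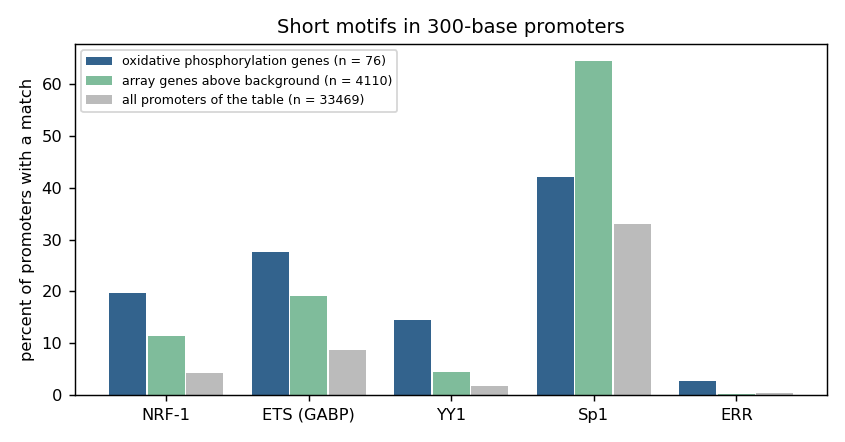
Percent of 300-base promoters with at least 1 match to each of 5 motifs (horizontal axis); blue bars are 76 oxidative phosphorylation genes, green bars 4110 array genes above background and grey bars all 33469 promoters of the table. Blue exceeds green for the NRF-1, ETS, YY1 and ERR motifs and lies below green for Sp1.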

How the data were processed

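Liver RNA of 4 rats was hybridised to 1 Affymetrix array each. The labels' protocols name the RAE230-2 array, while the deposited scanner settings name RAE230A, and the probe sets were named here by the platform annotation given for the value table. The authors deposited 1 log2 signal per probe set and array, for 15923 probe sets, with a lowest value of 5.98 and a highest of 15.07. R 2.4.1 is named in the submitters' processing notes, with affy 1.12.2 and both GCRMA and RMA. Which of them produced the signals is not given in the sources used here. Array quartiles nearly coincide, so differences in total signal between livers cannot be seen. Of the probe sets 6923 were flat, and the number of arrays limits the precision. The platform annotation gave 1 symbol to 12789 probe sets, several to 312 and none to 2822, and probe sets with several symbols were left out of the 85 genes. All 85 were found by gene number in the gene table of GRCr8. Means, SDs, deviations and counts were computed in Python 3.11.15 with numpy 2.4.6 and pandas 2.3.3, and the counting was tested on simulated signals. No test was made, because there is 1 group.

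In each complex the 3 genes with the highest mean, the 2 varying genes with the largest SD and the gene with the lowest mean are named, as are the tissue isoforms, the c subunit and 5 regulators. Other genes, the 3 largest deviations and the 4 promoters were named after their values were seen. The members and lists were chosen with earlier results of these data known. Alternatives covered the background level, the probe set per gene, flat values, scaling and leaving out each rat.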

Additional observations from a re-analysis of the deposited data

Results flagged for a closer look

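Of 73 sets of 4 values examined, 3 had 1 rat far from the other rats, a share no higher than the about 5% that chance gives. These sets are not the 73 genes above background. They are the 52 varying genes, the 2 mitochondrially encoded ones, varying probe sets with several symbols and median deviations of gene groups. In the 3 sets the gap to the nearest rat was large relative to the whole range, so small differences can count. Uqcrc1, a core protein of complex III, read 10.72 in rat 4 against 10.66 in each of the other rats. Cox6a1 of complex IV read 10.82 in rat 1 against 10.95 to 10.98. The median deviation of the varying enzymes of the pyruvate dehydrogenase and tricarboxylic acid cycle list was -0.034 in rat 2 against 0.015 to 0.020 in the others.

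Outside the 85 genes, 9 probe sets with several symbols, each including a symbol of the rule, were above background. Those of Cox7a2 and Uqcrb read 11.30 ± 0.078 and 11.42 ± 0.036, and that of Ndufs5 10.59 ± 0.010.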

How the results depend on the processing

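The count of 73 genes above background ranged from 68 to 75 over the settings that kept all 85 genes, and no tissue isoform was above background in any of them. The level was 9.05 at the 98th percentile and 9.35 over all probe sets of the list. There 19.99% and 14.6% of all named genes were above it, and 68 of the 85 genes each time. At both levels the subunits Ndufb8, Cox5a, Ndufa5 and Ndufs4 lay below, as did Ndufaf3, so the split by role was not complete. At the 90th percentile and without Myh1, with levels of 8.24 and 8.26, Ndufaf8 and Atp5if1 lay above. The median signal was 10.504 for structural subunits alone. The median SD was 0.035 at the 90th percentile and without Myh1, 0.044 with only probe sets whose identifiers lack s, x or a, 0.063 without flat probe sets, 0.031 with no filter and 0.035 with the trend removed. It ran from 0.034 to 0.042 when single rats were left out. The median deviation without flat probe sets was -0.022, -0.050, 0.046 and 0.014 in rats 1 to 4. With the flat genes included and no filter on background it was 0.0028 in rat 3. With the trend removed it was -0.014, -0.031, 0.028 and 0.0080 in rats 1 to 4 over the 52 varying genes. Of these, 19 were lowest in rat 2. Over all 73 genes above background it was then -9.86e-05 in rat 2 and 2.02e-06 in rat 3. Each of these 2 values is that of a flat gene. Centring the arrays on genes above background gave 25 of the 52 varying genes highest in rat 3 and 11 in rat 1. Their median deviation was then 0.034 in rat 3 and -0.010 in rat 1. With the flat genes included, which this centring shifts too, it was 0.0037 in rat 3 against 0.0099 in rat 1. Also with the flat genes included, leaving out single rats gave -0.031 to -0.00887 for rat 2 and 0.0054 to 0.029 for rat 3. Trend removal, subunits alone and leaving out rats for the deviations were chosen after seeing the data. The correlation between probe sets of a gene could not be computed, since each of the 4 genes with more than 1 had a flat brightest one. No paired analysis was possible because there is 1 group.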
